A study of Mus musculus with 12 samples.

Results

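The Nodal pathway was followed through 9 genes, of 23420 listed in the count files, chosen by symbol: the ligand Nodal, the co-receptor Tdgf1, the receptors Acvr1b and Acvr2b, the effectors Smad2 and Smad3, and the secreted antagonists Lefty1, Lefty2 and Cer1. RNA was sequenced from mouse cells of a mixed C57BL/6 and 129 background at 4 steps of reprogramming, the conversion of a differentiated cell into a pluripotent one, with 3 libraries per step. MEF are mouse embryonic fibroblasts, the starting cells. Stage1 is day 6, Stage2 is 4 days on from that, and iPSC are established induced pluripotent stem cells. Per the series text, every group except MEF was sorted for GFP driven by Oct4 (the gene Pou5f1), a fluorescent reporter of pluripotency, so Stage1, Stage2 and iPSC share that selection and MEF does not. How the reprogramming factors were delivered, and whether a group's 3 libraries are separate cultures or animals, are not given in the sources used here, and all p-values refer to the spread among the libraries alone.

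Nodal is a secreted ligand of the transforming growth factor beta family. It binds a complex of a type II receptor such as Acvr2b and the type I receptor Acvr1b, with the cell-surface protein Tdgf1 (also called Cripto) as co-receptor. The type I receptor phosphorylates Smad2 and Smad3, which enter the nucleus with Smad4 and act through partners such as Foxh1. Lefty1, Lefty2 and Cer1 are secreted proteins that block the ligand or its co-receptor, and the Lefty genes are themselves targets of the pathway in the early mouse embryo, where Nodal signalling patterns the epiblast.

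In 12 of 12 libraries the stage listed as a sample characteristic was not the one in the title: libraries titled Stage1 were described as MEF, those titled Stage2 as Stage 1, those titled iPSC as Stage 2 and those titled MEF as iPSC. Groups were taken here from the titles, which match the names of the count tables. The collagen gene Col1a1, made by fibroblasts, ranged over 1.22 to 30.8 CPM in the 9 libraries not titled MEF and over 1919 to 2959 CPM in MEF, where CPM are counts scaled to a common total of gene counts. Pou5f1 ranged over 446 to 776 CPM outside MEF and over 0.785 to 3.25 CPM in MEF. These genes set MEF apart and do not order Stage1, Stage2 and iPSC, so every direction between those groups rests on the titles. Gene totals ranged from 8916223 to 19011944 counts per library, and a count of 0 allowed up to 0.158 to 0.336 CPM, for counting error only. From 13817 to 14586 genes had a count in each MEF library, against 18863 to 20548 in each of the other libraries. The part of this difference in genes with 0 counts in MEF and few counts elsewhere was not tested. The share of reads that overlapped no counted feature averaged 9.21% in MEF libraries and 42.8% in Stage1 libraries. It averaged 49.9% in Stage2 libraries and 38.8% in iPSC libraries. The SDs, from MEF to iPSC, were 0.304, 4.11, 3.16 and 4.87 percentage points (n = 3). Such reads can lie in introns, so this is not the share of reads outside genes. In bulk RNA, fewer cells of a type and less RNA per cell cannot be told apart.

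Nodal, the ligand (chr10:61417972-61425338, plus strand, mm10), had no count in any of the 3 MEF libraries. It reached 7.60, 9.21 and 7.99 TMM-scaled CPM in the Stage1 libraries (CPM scaled by the trimmed mean of M values, used for all levels below). The Stage2 libraries held 15.2, 13.6 and 11.4 CPM, and the iPSC libraries 25.3, 23.2 and 16.6 CPM. The levels of the 4 groups did not overlap, and iPSC held the highest. Nodal was at least 108-fold higher at Stage1 than in MEF, taking 3 counts over the MEF libraries as the limit for a gene without counts (adjusted p = 3.97e-10). It was 0.70 ± 0.233 higher on the log2 scale at Stage2 than at Stage1 (SE, adjusted p = 0.0260, edgeR's quasi-likelihood test, Benjamini-Hochberg adjustment over 14770 genes, as for every adjusted p here). It was 0.70 ± 0.226 higher in iPSC than at Stage2 (adjusted p = 0.0441) and 1.39 ± 0.232 higher in iPSC than at Stage1 (adjusted p = 0.000219). The step between Stage2 and Stage1 was lost when Stage1 replicate 1 or 3 or Stage2 replicate 1 or 2 was left out (adjusted p up to 0.105). The step between iPSC and Stage2 was lost in 5 of 6 such omissions, all but iPSC replicate 3, and under 4 of 7 other settings (adjusted p up to 0.171). The rise in iPSC over Stage1 was called under every setting run.

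The RefSeq promoter window of Nodal, from 250 bases before to 50 after the annotated start (chr10:61417722-61418021, plus strand, GRCm38.p6), is shown because the gene without counts in MEF was counted in all 9 other libraries. It was searched on both strands for the FoxH1 motif AATNCACA, the Smad box CAGACA, the Klf motif GGGNGTGG, the Pou5f1 octamer ATTTGCAT and the Otx motif TAATCC, which 3.60%, 21.0%, 17.6%, 1.74% and 7.06% of 32851 RefSeq promoter windows of the same length held. It held no match to any of them, so no base is in capitals.
Nodal promoter: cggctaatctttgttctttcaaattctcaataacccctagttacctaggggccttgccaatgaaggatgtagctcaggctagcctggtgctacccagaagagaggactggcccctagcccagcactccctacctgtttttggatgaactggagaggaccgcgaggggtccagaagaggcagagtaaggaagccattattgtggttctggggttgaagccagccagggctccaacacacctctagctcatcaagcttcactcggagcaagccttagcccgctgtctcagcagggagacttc

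Tdgf1, the co-receptor (chr9:110939603-110946158, minus strand), had the highest level per kilobase of exon among the 9 genes at Stage1, at Stage2 and in iPSC. It had 0.626, 0.534 and 0.0602 CPM in the MEF libraries and 1182, 633 and 715 CPM in the Stage1 libraries. The Stage2 libraries held 2719, 1928 and 2188 CPM, and the iPSC libraries 3812, 2703 and 2836 CPM. Stage1 lay above MEF and below Stage2 in every library, while the ranges of Stage2 and iPSC overlapped. Tdgf1 was higher at Stage1 than in MEF by 11.16 ± 0.424 on the log2 scale (adjusted p = 2.28e-13), with 14 counts in all in MEF, and by 10.52 without MEF replicate 3. It was higher at Stage2 than at Stage1 by 1.43 ± 0.243 (adjusted p = 0.000201). The difference of 0.45 ± 0.238 between iPSC and Stage2 was not called (adjusted p = 0.204). Per kilobase of exon, the mean level of Tdgf1 was exceeded by 144 of 21777 genes at Stage1, by 32 at Stage2 and by 36 in iPSC. These ranks use CPM of gene totals without TMM scaling. Of the 50-base windows of its transcript, 12.5% occur in the pseudogene Tdgf1-ps1, so reads there cannot be assigned with certainty.

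The promoter window of Tdgf1 (chr9:110946109-110946408, minus strand, GRCm38.p6) is shown because of its level and because it held 2 matches to the Klf motif GGGNGTGG, in capitals, which start 45 and 26 bases before the annotated start. Klf proteins, among them the reprogramming factor Klf4, bind letters of this kind. At least 2 such matches occurred in 3.32% of all promoter windows. The other 4 motifs had no match there. A match describes the letters only.
Tdgf1 promoter: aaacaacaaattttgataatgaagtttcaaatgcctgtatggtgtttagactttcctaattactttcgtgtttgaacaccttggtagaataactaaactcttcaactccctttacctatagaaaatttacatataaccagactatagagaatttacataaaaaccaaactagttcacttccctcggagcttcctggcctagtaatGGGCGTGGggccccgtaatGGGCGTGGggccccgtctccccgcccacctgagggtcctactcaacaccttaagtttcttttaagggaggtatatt

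**Figure D1:**
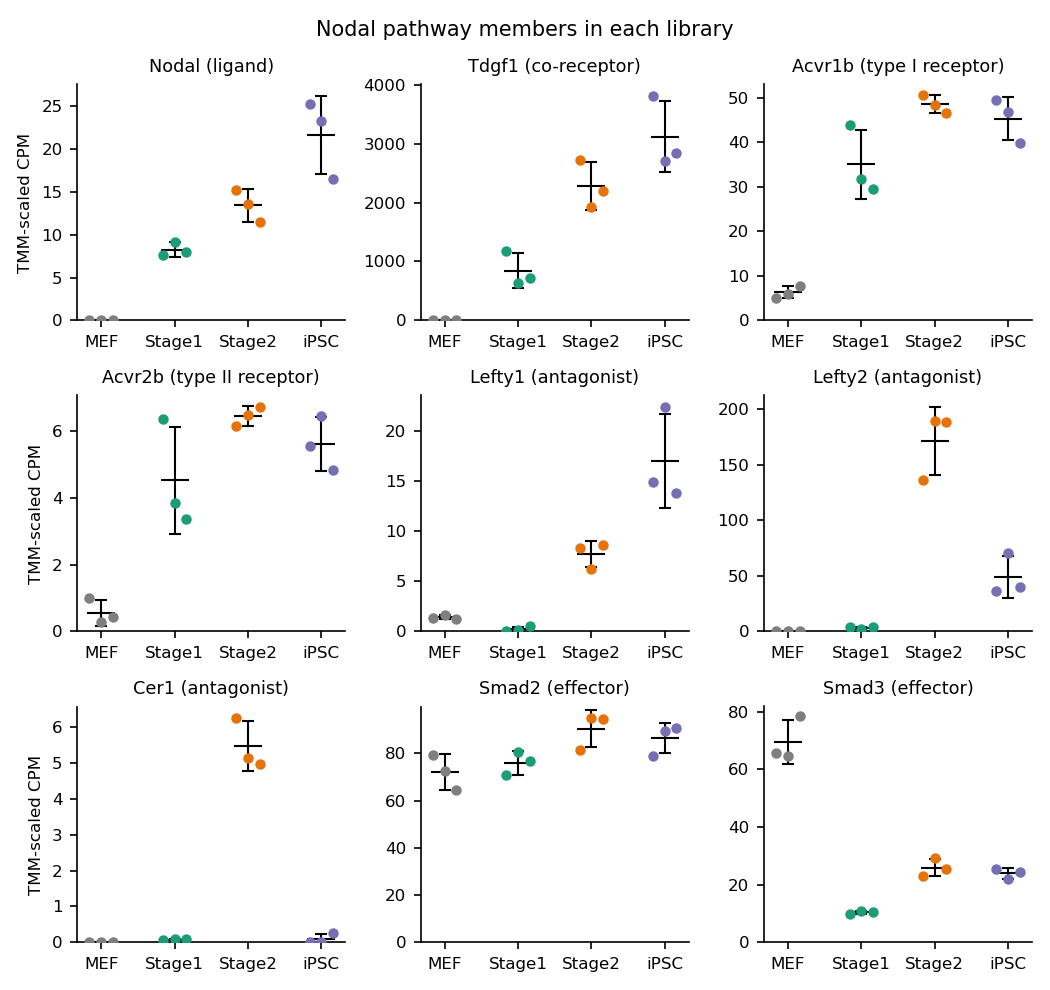
TMM-scaled CPM of each of the 9 genes (vertical axis, from 0, with a scale of its own in each panel) in the 3 libraries of MEF, Stage1, Stage2 and iPSC. Points are libraries, horizontal dashes are means and whiskers are SD (n = 3). Nodal was higher in each group than in the one before, Lefty2 and Cer1 peaked at Stage2, at 171 and 5.45 CPM on average, and Smad3 was highest in MEF.

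Both receptor genes were low in MEF and higher in the sorted groups. Acvr1b, the type I receptor also called Alk4 (chr15:101174067-101213684, plus strand), had 5.13, 5.94 and 7.77 CPM in MEF and 43.9, 31.7 and 29.6 CPM at Stage1. It had 50.7, 48.5 and 46.6 CPM at Stage2 and 49.5, 46.7 and 39.9 CPM in iPSC. MEF lay below all other libraries, Stage2 lay above Stage1, and iPSC overlapped both. Acvr1b was 2.46 ± 0.199 higher at Stage1 than in MEF on the log2 scale (adjusted p = 2.94e-09) and 0.47 ± 0.179 higher at Stage2 than at Stage1 (adjusted p = 0.0457). That second call was lost in 5 of 6 omissions of a library, all but Stage1 replicate 1, and with the replicate number as a block (adjusted p = 0.0515).

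Acvr2b, a type II receptor (chr9:119402118-119434995, plus strand), had 1.00, 0.267 and 0.422 CPM in MEF and 6.35, 3.84 and 3.36 CPM at Stage1. It had 6.15, 6.48 and 6.72 CPM at Stage2 and 5.54, 6.45 and 4.84 CPM in iPSC. MEF lay below the rest, and the other 3 groups overlapped each other. It was 3.15 ± 0.432 higher at Stage1 than in MEF (adjusted p = 2.86e-06), and the difference of 0.51 ± 0.336 between Stage2 and Stage1 was not called (adjusted p = 0.246). In Stage1 replicate 1, Tdgf1, Acvr1b and Acvr2b all stood above the other Stage1 libraries. Replicate 1 was also the highest library for Tdgf1 and Acvr1b at Stage2 and in iPSC, but not for Acvr2b. Without Stage1 replicate 1, Tdgf1 was 1.74 and Acvr1b 0.65 higher at Stage2 than at Stage1, and both were called. Per kilobase, Acvr1b was 13.6 ± 7.99 times as abundant as Acvr2b in MEF (SD, n = 3), 7.10 ± 0.864 times at Stage1, 6.72 ± 0.590 times at Stage2 and 7.24 ± 0.756 times in iPSC. The MEF ratio rests on 19 counts of Acvr2b in all and ran from 4.56 to 19.8 among the libraries.

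The antagonists were scarce in MEF and at Stage1. From there Lefty2 and Cer1 were highest at Stage2 and Lefty1 was highest in iPSC. Lefty2 (chr1:180893108-180899103, plus strand) had no count in MEF and 3.66, 1.88 and 3.95 CPM at Stage1. It stood at 136, 189 and 189 CPM at Stage2 and at 36.7, 70.7 and 40.0 CPM in iPSC. The groups did not overlap, and every Stage2 library lay above every iPSC library. Lefty2 was at least 42.5-fold higher at Stage1 than in MEF, with the same limit of 3 counts (adjusted p = 9.92e-07). It was 5.74 ± 0.315 higher at Stage2 than at Stage1 on the log2 scale (adjusted p = 5.40e-09), and 1.80 ± 0.250 lower in iPSC than at Stage2 (log2 fold change -1.80, adjusted p = 0.000362). At Stage2 its level per kilobase, as CPM of gene totals without TMM scaling, was exceeded by 580 of 21777 genes, against 8981 at Stage1.

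Lefty1 (chr1:180935022-180938400, plus strand), which lies near Lefty2 on the same strand, had 1.38, 1.67 and 1.26 CPM in MEF and 0.0691, 0.179 and 0.504 CPM at Stage1. It had 8.30, 6.20 and 8.59 CPM at Stage2 and 14.8, 22.4 and 13.8 CPM in iPSC. Stage1 was the lowest group and iPSC the highest, with no overlap between groups. Lefty1 was lower at Stage1 than in MEF, with 9 counts in all at Stage1 against 57 in MEF (log2 fold change -2.53 ± 0.516, adjusted p = 0.000231). It was 4.94 ± 0.451 higher at Stage2 than at Stage1 (adjusted p = 2.91e-07) and 1.15 ± 0.300 higher in iPSC than at Stage2 (adjusted p = 0.0150). Without Stage1 replicate 3 the first 2 values were -3.51 and 5.90. The difference between iPSC and Stage2 was not called without Stage2 replicate 2 (adjusted p = 0.0714) or without iPSC replicate 2 (adjusted p = 0.112). The Lefty genes are near copies: 281 of the 50-base windows of each transcript, 17.9% for Lefty1 and 11.6% for Lefty2, occur in the other, so reads there cannot be assigned with certainty.

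Cer1 (chr4:82881751-82885148, minus strand), a cystine-knot antagonist named Cerberus-like, was counted almost entirely at Stage2. It had no count in MEF and 1 count in each Stage1 library, or 0.0691, 0.0894 and 0.0841 CPM. The Stage2 libraries held 6.25, 5.14 and 4.97 CPM, from 214 counts in all. The iPSC libraries held 0, 0 and 0.255 CPM, with all 3 counts in replicate 3. Stage2 lay above every other library, and the other groups were at or below the limit of 3 counts. Stage2 was 67.1 times as high as Stage1 (95% counting interval 22.7 to 328, adjusted p = 1.67e-05). Stage2 was 68.1 times as high as iPSC, with an interval of 23.0 to 333, and Cer1 was lower in iPSC (adjusted p = 0.000132). No fold is given between MEF, Stage1 and iPSC. The filter on low counts was passed by Cer1 through Stage2 alone, so its calls between Stage2 and other groups were partly built in.

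The promoter window of Cer1 (chr4:82885102-82885401, minus strand, GRCm38.p6) is shown because the counts of Cer1 lay almost entirely in 1 group. It held 1 Smad box, CAGACA, in capitals, which starts 213 bases before the annotated start, and none of the other 4 motifs. A Smad box occurred in 21.0% of all promoter windows.
Cer1 promoter: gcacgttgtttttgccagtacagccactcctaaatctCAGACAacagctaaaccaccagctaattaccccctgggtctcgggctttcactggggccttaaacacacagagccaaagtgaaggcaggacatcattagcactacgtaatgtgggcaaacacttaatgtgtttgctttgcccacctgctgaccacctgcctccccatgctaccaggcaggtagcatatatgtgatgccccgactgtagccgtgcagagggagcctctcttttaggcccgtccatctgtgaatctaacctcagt

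The balance between the antagonists and the ligand, per length, differed from group to group. The summed level of Lefty1, Lefty2 and Cer1 per kilobase of exon was 0.198 to 0.485 times that of Nodal in the Stage1 libraries (mean 0.364 ± 0.148, SD, n = 3). It was 8.32 to 14.7 times that of Nodal at Stage2 (11.7 ± 3.19) and 1.87 to 3.59 times in iPSC (2.80 ± 0.871). Antagonist RNA thus lay below Nodal RNA in every Stage1 library and above it in every Stage2 and iPSC library. Lefty1 made up 32.0% to 37.6% of the Lefty pair per kilobase in iPSC and 4.63% to 8.29% at Stage2. Tdgf1 stood far above its ligand at Stage1, at Stage2 and in iPSC, at 83.6 ± 36.2 times Nodal at Stage1, 136 ± 20.5 times at Stage2 and 117 ± 22.2 times in iPSC, per kilobase. These ratios are descriptions of the same libraries and were not tested.

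**Figure D2:**
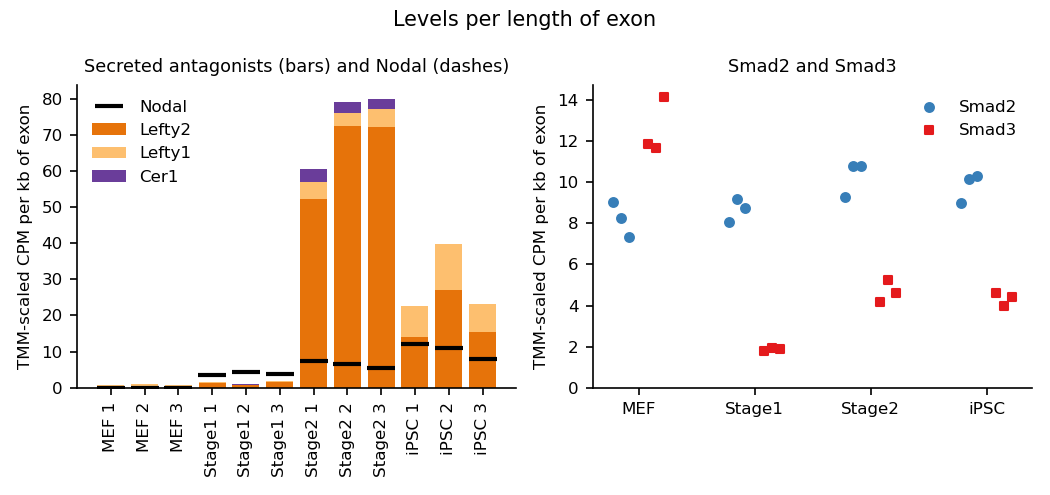
Levels as TMM-scaled CPM per kilobase of exon. The left panel stacks Lefty2, Lefty1 and Cer1 for each of the 12 libraries, with black dashes for Nodal; the bars lie below the dash at Stage1 and above it at Stage2 and in iPSC. The right panel shows Smad2 (circles) and Smad3 (squares) in each library of the 4 groups, with Smad3 above Smad2 in MEF only.

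Smad3 was highest in MEF and lowest at Stage1, while Smad2 was called in 1 of 6 comparisons. Smad2 (chr18:76241580-76310963, plus strand) had 79.5, 72.6 and 64.4 CPM in MEF, 70.7, 80.7 and 76.8 CPM at Stage1, 81.5, 95.0 and 94.8 CPM at Stage2 and 79.0, 89.4 and 90.6 CPM in iPSC. Its ranges overlapped in most pairs of groups. The difference between Stage1 and MEF was 0.08 ± 0.131 on the log2 scale (adjusted p = 0.589), that between Stage2 and Stage1 0.25 ± 0.130 (adjusted p = 0.136), and that between iPSC and Stage2 -0.07 ± 0.130 (adjusted p = 0.762). Stage2 against MEF was the 1 pair called, at 0.33 ± 0.131 (adjusted p = 0.0281), and this call was lost without MEF replicate 3, Stage2 replicate 2 or Stage2 replicate 3, and in a fit of those groups alone (adjusted p up to 0.140). The Smad2 difference between Stage2 and Stage1 was called when library totals replaced TMM (0.46, adjusted p = 0.0127).

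Smad3 (chr9:63646767-63757994, minus strand) had 65.8, 64.7 and 78.4 CPM in MEF and 9.94, 10.8 and 10.4 CPM at Stage1. It had 23.1, 29.2 and 25.5 CPM at Stage2 and 25.5, 21.9 and 24.4 CPM in iPSC. MEF was the highest group and Stage1 the lowest, and Stage2 and iPSC overlapped between them. Smad3 was lower at Stage1 than in MEF (log2 fold change -2.75 ± 0.164, adjusted p = 4.98e-11) and higher at Stage2 than at Stage1 (1.32 ± 0.161, adjusted p = 6.89e-06). The difference between iPSC and Stage2 was not called (-0.12 ± 0.154, adjusted p = 0.639), and Smad3 stayed below MEF in iPSC (-1.54 ± 0.155, adjusted p = 5.48e-08). Per kilobase, Smad2 was 0.663 ± 0.128 times Smad3 in MEF, 4.62 ± 0.115 times at Stage1, 2.21 ± 0.144 times at Stage2 and 2.29 ± 0.313 times in iPSC (SD, n = 3).

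Counted together, Stage1 against MEF called 5 of the 9 genes higher (Nodal, Tdgf1, Acvr1b, Acvr2b, Lefty2) and 2 lower (Lefty1, Smad3), where 80.4% of all 14770 genes were called, 44.2% higher and 36.1% lower. The share of members called was near that background. Stage2 against Stage1 called 7 higher and 0 lower, where 40.4% of all genes were called, 20.6% higher and 19.8% lower. With library totals in place of TMM, 4023 genes were higher and 1679 lower at Stage2, against 3048 and 2921 with TMM. In iPSC against Stage2, Nodal and Lefty1 were higher and Lefty2 and Cer1 lower, against 18.1% of all genes called, 9.21% higher and 8.87% lower. That count fell to 2 without Stage2 replicate 2 and without iPSC replicate 2, where Nodal and Lefty1 were no longer called. With library totals, 888 genes were higher and 1707 lower in iPSC than at Stage2, against 1360 and 1310 with TMM. All 9 genes passed the filter on low counts, among them Nodal, Lefty2 and Cer1, which passed through the groups in which they were counted. Cer1 passed through Stage2 alone, with 214 counts there and 3 each at Stage1 and in iPSC. Its higher level at Stage2 than in any other group was thus partly built into the counts of members called. For Cer1 the share of all genes is no yardstick.

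The median log2 fold change of the members was 2.81 at Stage1 against MEF, with genes without counts at their bound and Cer1 left out, 1.32 at Stage2 against Stage1 and -0.10 in iPSC against Stage2. The medians over all genes tested were 0.27, 0.02 and 0.04 in the same order. The libraries of the 2 groups did not overlap for 8, 8 and 4 of the 9 genes in these comparisons. The shares of all genes tested were 79.2%, 59.6% and 46.2%, so the first count is close to that share and the last is at it. The first 8 include Cer1, with 1 count in each Stage1 library and 0 in MEF, a difference that was not called. The later counts include Cer1 too, which passed the filter through Stage2. Across the wider span, Stage2 against MEF called 8 higher and 1 lower, with 81% of all genes called, 44.6% higher and 36.4% lower. There, Nodal was at least 174-fold, Lefty2 at least 2315-fold and Cer1 at least 70.7-fold higher at Stage2. iPSC against MEF called 6 higher and 1 lower, with 80.8% of all genes called, 44.9% higher and 35.8% lower. iPSC against Stage1 called 5 higher, with 39.4% of all genes called, 21.3% higher and 18.1% lower. They were Nodal, Lefty1 (6.08 ± 0.444), Lefty2 (3.94 ± 0.302), Tdgf1 (1.89 ± 0.246) and Smad3 (1.20 ± 0.161). Comparisons that name the same group share its libraries.

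**Figure D3:**
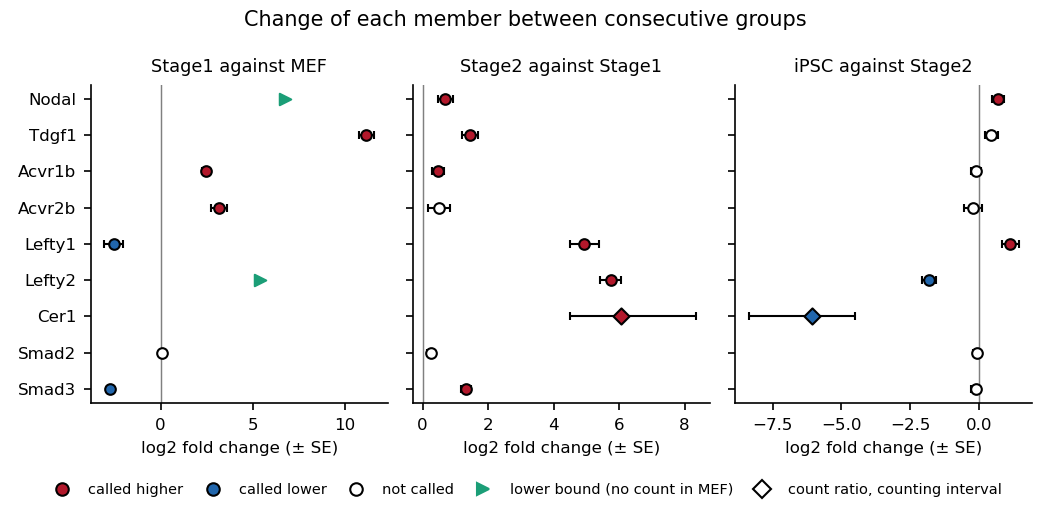
Log2 fold change of each of the 9 genes (horizontal axis, scaled separately in each panel) in the 3 consecutive comparisons. Red is called higher, blue called lower and white not called at an adjusted p of 0.05; whiskers are SE. Green triangles are lower bounds for genes without counts in MEF, diamonds are count ratios with 95% counting intervals, and Cer1 has no point at Stage1 against MEF. All points at Stage2 against Stage1 lie above 0, and Lefty1 and Lefty2 lie on opposite sides of 0 in iPSC against Stage2. Cer1 passed the filter on low counts through Stage2 alone.

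Other ligands of the pathway and the proteases that mature them were called in both directions at the first step. Of 6 tested (Gdf1 was listed at 0 in all libraries), 2 were higher and 4 lower at Stage1 than in MEF (median -2.67), where 80.4% of all genes were called in either direction. Gdf3, a Nodal-related ligand of pluripotent cells, averaged 28.1 ± 4.11 CPM at Stage1 and had no count in MEF, at least 375-fold higher (adjusted p = 1.77e-12). Inhba, which encodes the activin A subunit and signals through the same receptors, averaged 0.231 ± 0.0993 CPM at Stage1 and 113 ± 7.21 CPM in MEF (log2 fold change -8.83 ± 0.297, adjusted p = 3.28e-14). At Stage2 against Stage1, 4 were higher and 0 lower (median 1.34), where 40.4% of all genes were called. Among them Furin, a convertase that cleaves pro-Nodal, was higher by 1.70 ± 0.234 (adjusted p = 2.38e-05), and Inhbb, the activin B subunit, by 1.69 ± 0.293 (adjusted p = 0.000247). Furin stayed far below MEF, with means of 183 CPM in MEF, 2.30 CPM at Stage1, 7.53 CPM at Stage2 and 5.41 CPM in iPSC. In iPSC against Stage2, 1 was lower and 5 were not called (median -0.36), which is at the 18.1% of all genes called there.

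Of 3 further receptors and co-receptors tested (Cfc1 was too low), 1 was higher and 2 lower at Stage1 than in MEF, with the same 80.4% of all genes called. Tgfbr3, the betaglycan co-receptor, was lower by a log2 fold change of -2.03 ± 0.321 (adjusted p = 1.55e-05), and Acvr2a, an alternative type II receptor, by -0.83 ± 0.150 (adjusted p = 7.00e-05). Acvr2a was more abundant than Acvr2b in every group. Its means per kilobase were 9.01 in MEF, 5.06 at Stage1, 5.59 at Stage2 and 3.99 in iPSC, against 0.143, 1.15, 1.64 and 1.43 for Acvr2b. Tgfbr3 was higher at Stage2 than at Stage1 (1.57 ± 0.321, adjusted p = 0.000941), and Acvr2a was lower in iPSC than at Stage2 (-0.49 ± 0.152, adjusted p = 0.0348). In each of those later comparisons 1 of the 3 was called, against 40.4% and 18.1% of all genes. The medians of this list were -0.83, 0.14 and -0.49 over the 3 consecutive comparisons. Of 5 Smad partners, 4 were higher at Stage1 than in MEF (median 1.27), a share at the background of 80.4%. Foxh1, the DNA-binding partner of Smad2 in the embryo, averaged 17.5 ± 2.99 CPM at Stage1 and 0.167 ± 0.289 CPM in MEF, where all 4 counts lay in replicate 1 (7.27 ± 0.545, adjusted p = 1.05e-09). Trim33, a ubiquitin ligase that binds Smad4 and activated Smad2 and Smad3, was higher by 2.09 ± 0.149 (adjusted p = 5.48e-10). At Stage2 against Stage1, Zfyve9, which presents Smad2 to the receptor, was the 1 partner called, against 40.4% of all genes (-0.90 ± 0.272, adjusted p = 0.0134, list median -0.18). In iPSC against Stage2 it was Ep300, a histone acetyltransferase recruited by Smads, against 18.1% of all genes (-0.60 ± 0.143, adjusted p = 0.00874, list median -0.15).

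Among 13 intracellular and extracellular inhibitors, 4 were higher and 8 lower at Stage1 than in MEF (median -1.12), against 44.2% higher and 36.1% lower among all genes. Pmepa1, a membrane protein that sequesters Smads and is itself induced by the pathway, averaged 1.84 ± 0.678 CPM at Stage1 and 209 ± 12.7 CPM in MEF (-6.84 ± 0.222, adjusted p = 2.33e-14). Fst, the activin-binding follistatin, was lower by -4.59 ± 0.310 (adjusted p = 2.49e-10). At Stage2 against Stage1, 5 were higher and 0 lower (median 0.24), and the 38.5% called was near the 40.4% of all genes. Skil, a Smad co-repressor induced by the pathway, stood at 396 ± 23.9 CPM at Stage2, against 92.6 ± 22.6 CPM at Stage1 (2.09 ± 0.165, adjusted p = 5.26e-08), and Pmepa1 was higher by 1.89 ± 0.224 (adjusted p = 5.20e-06). In iPSC against Stage2, 1 was higher and 2 lower (median -0.01), or 23.1% called against 18.1% of all genes. The lower ones were Fst (-1.18 ± 0.304, adjusted p = 0.0138) and Smad7, the inhibitory Smad (-0.68 ± 0.183, adjusted p = 0.0177).

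Of 10 target genes known from gastrulation, 7 could be tested. At Stage1 against MEF 4 were higher and 1 lower, most of them at a few counts, with a median of 0.81 when genes without counts stood at their bound and of 3.86 as fitted. The 71.4% called there was below the 80.4% of all genes. Eomes, a T-box factor of the primitive streak, had 240 counts at Stage1 and 3 in MEF, or 84.3 times as many after scaling (95% counting interval 28.5 to 412). At Stage2 against Stage1 6 of 7 were higher and 0 lower (median 2.82), where 20.6% of all genes were higher. Gsc, Foxa2 and Fgf8 passed the filter on low counts mainly through Stage2. They had 61, 78 and 39 counts there, against 2, 4 and 5 at Stage1. A rise at Stage2 was thus partly built into this count, and the share of all genes is no yardstick for it. Eomes stood at 13.2 ± 2.00 CPM at Stage2, against 6.13 ± 2.82 CPM at Stage1 (1.09 ± 0.347, adjusted p = 0.0187). In iPSC against Stage2 1 was lower and 6 were not called (median -1.08), where 18.1% of all genes were called. These lists were drawn up with results of these data known.

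**Figure D4:**
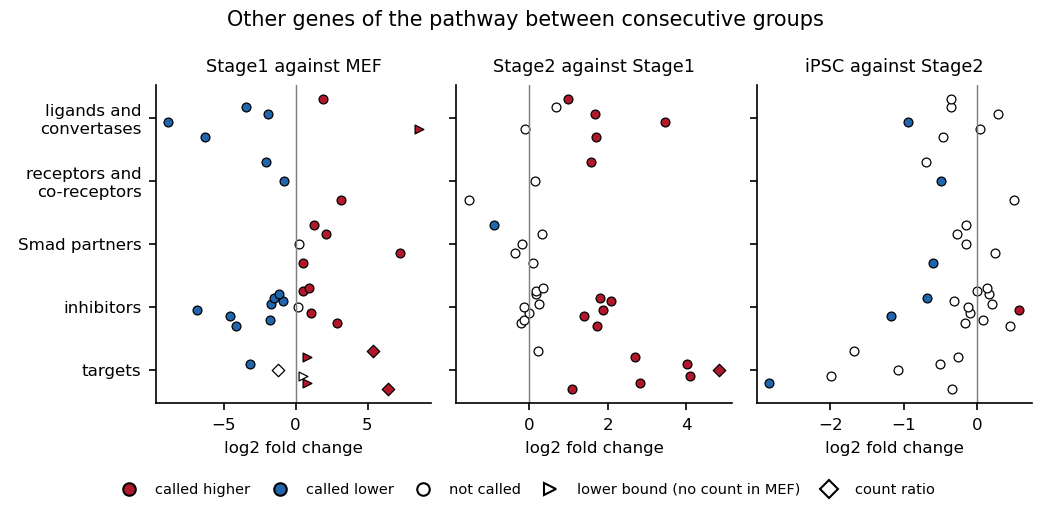
Log2 fold change (horizontal axis, scaled separately in each panel) of the other tested genes of the pathway in the 3 consecutive comparisons, by list. Each point is a gene, red if called higher, blue if called lower and white if not called; triangles are lower bounds and diamonds are count ratios. Inhibitors and ligands spread to both sides at Stage1 against MEF, and 6 of 7 targets are red at Stage2 against Stage1. Some targets passed the filter on low counts mainly through Stage2.

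Markers of other cell types moved beside these genes. The summed level of 5 epiblast markers was 1.67 to 3.003 CPM in MEF, 181 to 369 CPM at Stage1, 211 to 277 CPM at Stage2 and 96.2 to 145 CPM in iPSC. Dnmt3b made up most of that sum outside MEF and did not peak at Stage2, with means of 297 ± 103 CPM at Stage1, 165 ± 32.0 CPM at Stage2 and 102 ± 25.2 CPM in iPSC. The mean of Pou3f1 was highest in iPSC, at 0.683 ± 0.165 CPM at Stage1, 3.75 ± 0.677 CPM at Stage2 and 5.57 ± 0.110 CPM in iPSC. The means of Fgf5, Otx2 and Sox3 were highest at Stage2, and Sox3 stayed below 1 CPM on average. Fgf5 averaged 0.209 ± 0.210 CPM at Stage1, 10.3 ± 1.49 CPM at Stage2 and 0.277 ± 0.221 CPM in iPSC, and Otx2 averaged 4.65 ± 2.74, 55.5 ± 3.12 and 7.92 ± 0.897 CPM in the same order. The sum of 10 fibroblast markers was 28083 to 34595 CPM in MEF, 15.7 to 27.3 CPM at Stage1, 126 to 197 CPM at Stage2 and 77.8 to 85.0 CPM in iPSC. It was highest at Stage2 among the sorted groups, as Lefty2 was, and 7 of its 10 genes were called higher at Stage2 than at Stage1, against 20.6% of all genes. The sum of 10 markers of extraembryonic endoderm, a tissue that makes Cer1 and Lefty1 in the embryo, was 77.5 to 144 CPM in MEF, with 5 of 10 genes without counts. It was 5.04 to 8.41 CPM at Stage1, with Foxq1 without counts, 8.39 to 11.6 CPM at Stage2 and 15.0 to 17.4 CPM in iPSC. Dab2 made up most of this sum in MEF, at 97.9 ± 31.2 CPM, against 2.52 ± 1.23 CPM at Stage1 and 1.40 ± 0.765 CPM at Stage2. The means of Dab2, Amn, Ttr and Afp were lower at Stage2 than at Stage1. Those of Gata4, Gata6, Sox7, Hnf4a, Cubn and Foxq1 were higher. The sum of 4 macrophage markers was 94.0 to 107 CPM in MEF, 7.40 to 14.0 CPM at Stage1, 24.1 to 29.1 CPM at Stage2 and 10.9 to 16.7 CPM in iPSC. Cd68 carried its difference between Stage2 and Stage1, at 25.0 ± 2.28 CPM at Stage2 and 7.54 ± 3.29 CPM at Stage1. Lyz2 was lower, at 0.439 ± 0.224 CPM at Stage2 and 1.30 ± 0.273 CPM at Stage1, and Csf1r and Ptprc averaged below 1 CPM in both groups. The sum of 10 pluripotency markers was 4.64 to 5.61 CPM in MEF, 2878 to 3496 CPM at Stage1, 3853 to 4273 CPM at Stage2 and 3876 to 3964 CPM in iPSC. The part of these cell types in the results was not tested.

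The genes most like 5 of the members were sought by Pearson r of log2 CPM over the 9 Stage1, Stage2 and iPSC libraries, among 9980 genes. These libraries fall into 3 groups and share depth and scaling, so r describes the order of the groups more than anything else. For Nodal they were Msantd3 (r = 0.986), Iqcg and Cotl1. For Tdgf1 they were Myh10 (r = 0.989), Haghl and Synm. Lefty1 was most like the pathway inhibitor Pmepa1 (r = 0.994), then She and Ddx43. Lefty2 was most like the collagen gene Col6a3 (r = 0.996), then Pcyt1b and Pou4f2, and Cer1 was most like Tbl1xr1 (r = 0.989), then Atp2b4 and Ifitm1. Over all 12 libraries none of these 5 first-ranked genes kept its r: it was 0.51 for Nodal with Msantd3, -0.67 for Tdgf1 with Myh10, 0.13 for Lefty1 with Pmepa1, -0.67 for Lefty2 with Col6a3 and 0.61 for Cer1 with Tbl1xr1. Among the genes ranked next, r over all 12 libraries was -0.65 for Nodal with Cotl1 but 0.99 for Nodal with Iqcg. It was 0.98 for Lefty2 with Pcyt1b and with Pou4f2. For the remaining genes named it ran from 0.02 to 0.81. Among the members over the 9 libraries, r was 0.932 for Acvr1b with Acvr2b, 0.858 for Lefty1 with Lefty2 and -0.06 for Nodal with Cer1.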

How the data were processed

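RNA was extracted with a miRNeasy Mini kit before Illumina library preparation, per the labels' protocols. Raw counts of reads per gene symbol are what the authors deposited. Per the submitters' processing notes, the tools were TopHat2 2.0.9, Bowtie2 2.2.6, SAMtools 0.1.19, HTSeq 0.5.4p3 and DESeq2 1.12.4, with mm10. Strandedness, read length and annotation version are not given in the sources used here. Reads of overlapping or antisense genes cannot be told apart. HTSeq's 5 summary lines stayed out of library sizes and tests.

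The 12 libraries were fitted together with edgeR 4.0.16 (R 4.3.3, limma 3.58.1, statmod 1.5.0), by filterByExpr by group (14770 genes kept), TMM scaling, robust quasi-likelihood with 1 term per group, and Benjamini-Hochberg adjustment over all genes tested, with calls below 0.05. SE was derived from the test, by dividing the size of the log2 fold change by the root of F. The common biological coefficient of variation was 0.190. A group of 0 counts was set to 3 counts for a bound, and a group of 1 to 3 counts was given as a ratio with an exact 95% counting interval, which covers counting error only. Levels per kilobase use the exon union of GENCODE M21, and ranks among all genes use CPM of gene totals per kilobase. Promoters are from RefSeq (GRCm38.p6), where 6 of 9 members matched by symbol. For r, log2 CPM had a prior count of 2, and genes had to average at least 5 CPM in 1 of the 3 groups.

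All 9 members are described. From each pathway list and consecutive comparison, the 2 called genes with the largest change and at least 5 CPM in the higher group are named. The marker genes named with single values were chosen after their values were seen. The members and lists were chosen with earlier results of these data known. The procedure was tested on simulated data. Alternatives were RLE scaling, library totals, no filter, 1 CPM in 3 libraries, DESeq2 1.42.0, a fit of the groups compared alone, the replicate number as a block and leaving out each library. No naming of groups from the characteristics was run.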

Additional observations from a re-analysis of the deposited data

How the results depend on the processing

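Of 51 differences between groups for single genes, 41 kept their direction and their side of the threshold under all alternatives run, and 10 did not. The number of members called in iPSC against Stage2 was 2 to 4 when a library was left out, against 4 with all libraries. In the other comparisons it stayed within 1.5 times, at 7 to 7 for Stage1 against MEF, 5 to 6 for Stage2 against Stage1 (7 with all libraries), 8 to 9 for Stage2 against MEF, 5 to 6 for iPSC against Stage1 and 7 to 9 for iPSC against MEF. For Smad2, 2 differences that were not called changed sign: Stage1 against MEF was -0.0036 in a fit of those groups alone, and iPSC against Stage2 ran from -0.11 to 0.021 when a library was left out, above 0 without iPSC replicate 1. The causes were not tested. Besides the changes given with the results, Acvr1b in iPSC against Stage1 was called without Stage1 replicate 1 and in a fit of those groups alone, and Smad2 in Stage2 against Stage1 in a fit of those groups alone. Smad2 in iPSC against MEF was called with library totals and without iPSC replicate 1. Library totals in place of TMM moved the median of all genes by 0.18 for Stage1 against MEF and by 0.20 for Stage2 against Stage1, by 0.38 for Stage2 against MEF, 0.28 for iPSC against MEF and 0.10 for iPSC against Stage1. Between libraries with the same replicate number, r of deviations from group means ran from -0.07 to 0.20, over 0.1 in 3 of 18 pairs. Pairs with unlike numbers were not compared, so this does not decide whether the numbers pair the samples. In replicate 1 of Stage1, Stage2 and iPSC alike, Tdgf1 and Acvr1b were highest and Smad2 was lowest. No other member kept replicate 1 at the same end in all of these groups. With the replicate block, 7, 6 and 3 members were called in the 3 consecutive comparisons and 9, 5 and 7 in Stage2 against MEF, iPSC against Stage1 and iPSC against MEF. Depth limits Cer1 outside Stage2 and Lefty1 at Stage1, which rest on 9 counts or fewer per group. It also limits Tdgf1 and Acvr2b in MEF, which rest on 14 and 19 counts.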
